A study of Mus musculus with 12 samples.

Results

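The Toll-like receptor genes Tlr1, Tlr2, Tlr3, Tlr4, Tlr6, Tlr7, Tlr9 and Tlr13 and the LPS co-receptor genes Cd14 and Ly96 were chosen by name, as the features of the main category whose symbol equals one of these names. All 10 had 1 feature each, among 27296 genes tested. Their levels come from MH-S, a line of mouse alveolar macrophages, of which 6 clones were put on 12 Affymetrix arrays of the Mouse Gene 2.1 ST type, 1 array for each clone and condition. IL-4Ra, a chain found in both the IL-4 and the IL-13 receptor, has low activity in clones 7, 29 and 75 and high activity in clones 69, 73 and 83, as labelled. Cells of each clone were left unstimulated or were given LPS of Salmonella Minnesota R595 (Re) at 0.2 µg/ml, both for 16 h, which gave 4 groups of 3 arrays. All groups are the same cell line in the same medium, every clone is a line of its own, and the sources used here do not give the assay behind the labelled activity.

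Toll-like receptors are membrane proteins with a leucine-rich ligand-binding part and a cytoplasmic TIR domain that recruits the adaptors MyD88 or TRIF. At the cell surface TLR4 senses LPS together with MD-2, the product of Ly96, after CD14 has handed LPS over, and TLR2 senses bacterial lipopeptides as a dimer with TLR1 or TLR6. Inside endosomes TLR3 senses double-stranded RNA, TLR7 single-stranded RNA, TLR9 unmethylated CpG DNA and, in mouse, TLR13 bacterial ribosomal RNA. Macrophages use these receptors to start the inflammatory and the interferon programme.

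LPS raised Tlr2, Tlr3 and Tlr9 and lowered Tlr4 and Tlr13 over the 6 clones. Cd14, Ly96, Tlr1, Tlr6 and Tlr7 did not pass the test, so 3 of 10 members were higher and 2 lower. In the same comparison 12.4% of all genes were called, that is, had an adjusted p under 0.05 by Benjamini-Hochberg (5.72% higher and 6.72% lower). Levels are read below against 7.26 on the log2 scale, the level that 95% of intron control values stay under. All 10 members reached it in the mean of at least 1 group, Tlr2 and Tlr9 only in their LPS groups. Of the 8028 genes that reached it in at least 1 group, 27.8% were called in this comparison. Where all arrays of a group lie under 7.26, a fold against it is given as a lower bound, with 7.26 in place of the group's level. Such a bound is taken from the mean of the other group and leaves out the error of that mean. The median LPS change of the members was −0.12 on the log2 scale, against −0.01 over all genes, and the median absolute change was 0.48 against 0.11. Both medians over all genes include the many genes that stayed under 7.26 in every group. No median is given for the 8028 genes alone, and the members were chosen with earlier results of these data known. Because whole cultures were measured, fewer cells with a transcript and less transcript per cell cannot be told apart.

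**Figure D1:**
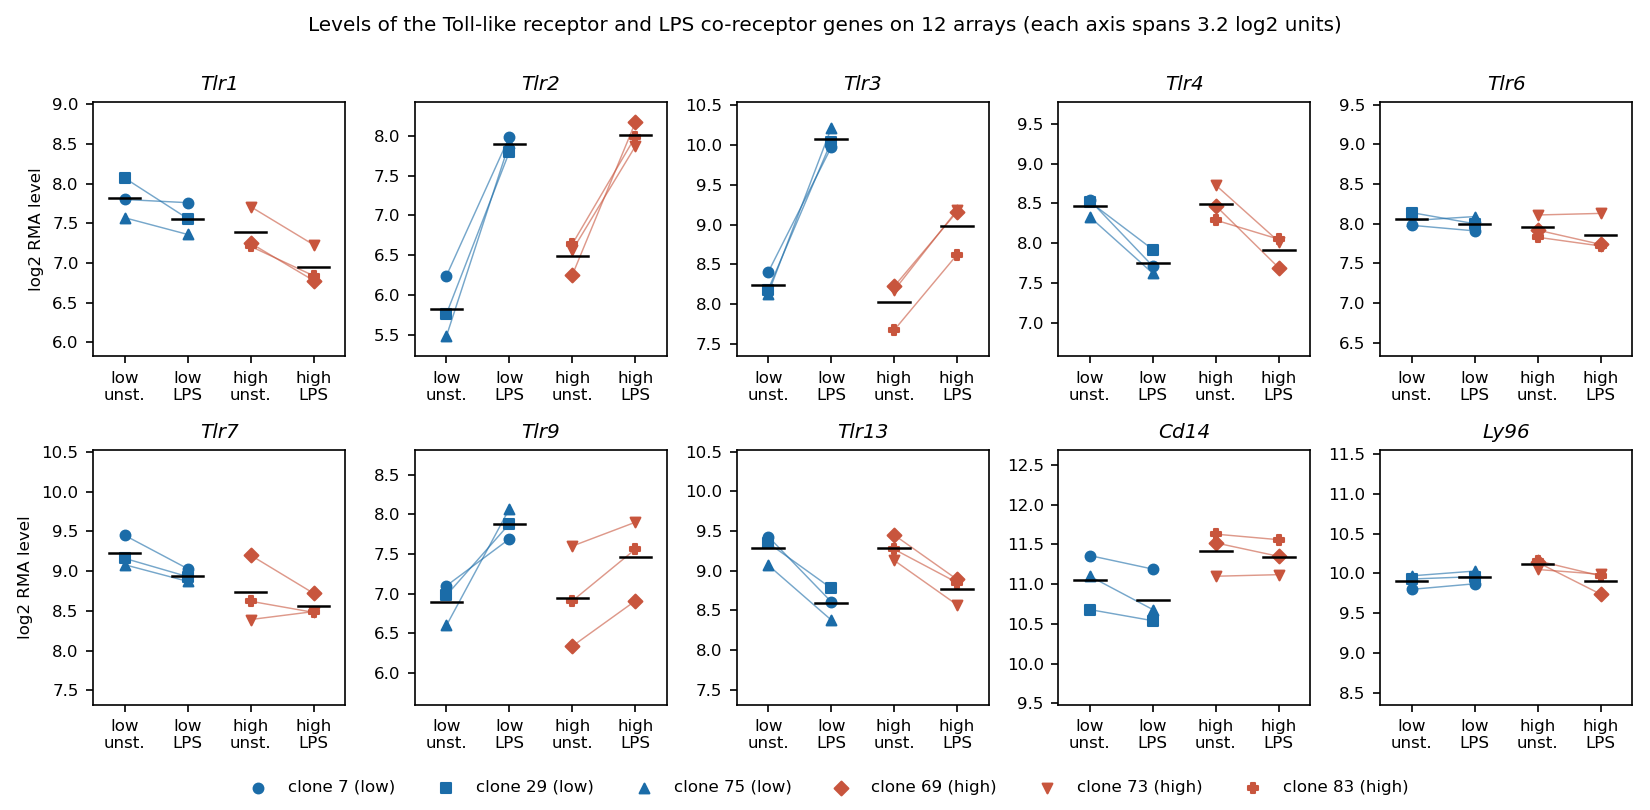
Log2 RMA level (vertical axis) of each of the 10 genes on the 12 arrays, by group (horizontal axis; low and high are the labelled IL-4Ra activity, unst. is unstimulated), with a thin line joining both arrays of a clone and a black bar at the group mean. Tlr2 and Tlr3 lie higher on every LPS array than on any unstimulated array, Tlr4 and Tlr13 lie lower, and the low clones with LPS have the highest Tlr3 levels (9.97 to 10.21).

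The windows around the transcription start are shown for the called genes that have one in the RefSeq table, because 3 of these genes rose and Tlr13 fell under the same stimulus. From the table (GRCm38.p6, 250 bases before to 50 after the start) windows of 6 of the 10 members were used. No window was used for Tlr4, Tlr7, Cd14 and Ly96, which are named only. Each line reads 5′ to 3′ on the strand of the gene, and capitals mark every match to one of 4 motifs, searched on both strands. The motifs were the kappaB motif (GGG, any 5 bases, CC), the interferon-stimulated response element (GAAA, any 2 bases, GAAA), the gamma-activated site (TTC, any 3 bases, GAA) and the PU.1 motif (GAGGAA), and matches that overlap are joined.
Tlr2, chr3:83841559-83841858, minus strand: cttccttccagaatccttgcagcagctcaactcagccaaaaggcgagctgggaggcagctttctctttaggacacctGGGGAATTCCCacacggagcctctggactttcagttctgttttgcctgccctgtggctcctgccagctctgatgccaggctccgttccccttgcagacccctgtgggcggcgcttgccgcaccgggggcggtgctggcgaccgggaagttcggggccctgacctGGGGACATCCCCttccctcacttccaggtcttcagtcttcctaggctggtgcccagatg
Tlr3, chr8:45410331-45410630, minus strand: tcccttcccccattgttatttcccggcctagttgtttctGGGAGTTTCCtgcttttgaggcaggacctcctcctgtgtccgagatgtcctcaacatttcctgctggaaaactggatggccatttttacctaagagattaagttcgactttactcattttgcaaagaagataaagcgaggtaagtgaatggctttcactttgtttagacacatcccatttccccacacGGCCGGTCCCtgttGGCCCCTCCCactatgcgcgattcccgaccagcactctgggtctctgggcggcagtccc
Tlr9, chr9:106222348-106222647, plus strand: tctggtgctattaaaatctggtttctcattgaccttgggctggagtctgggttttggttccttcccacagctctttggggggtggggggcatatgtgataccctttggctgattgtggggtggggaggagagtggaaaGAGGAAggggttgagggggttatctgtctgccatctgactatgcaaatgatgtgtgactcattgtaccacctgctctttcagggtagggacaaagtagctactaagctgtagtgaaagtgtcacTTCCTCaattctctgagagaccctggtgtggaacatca
Tlr13, chrX:106143025-106143324, plus strand: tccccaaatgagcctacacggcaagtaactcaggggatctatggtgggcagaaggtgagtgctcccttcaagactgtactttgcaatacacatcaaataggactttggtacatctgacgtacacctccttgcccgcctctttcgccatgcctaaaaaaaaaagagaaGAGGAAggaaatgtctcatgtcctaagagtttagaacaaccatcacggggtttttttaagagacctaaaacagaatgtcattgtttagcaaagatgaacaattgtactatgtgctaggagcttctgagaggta
The kappaB motif matched in 2 stretches for Tlr2 and in 3 stretches for Tlr3, and the PU.1 motif in 2 stretches for Tlr9 and 1 for Tlr13. The windows of Tlr1 and Tlr6, which were not called, were searched but are not shown. Tlr1 held 1 PU.1 stretch in window 1 and 1 gamma-activated site stretch in window 2. Tlr6 held 1 interferon-stimulated response element stretch in window 1, and 1 kappaB and 2 gamma-activated site stretches in window 2. In Tlr2 the kappaB stretches run from −173 to −163 and from −9 to 3, counted from the start at 1, and each holds matches on both strands. Of all 32851 windows of this table, 50.8% hold the kappaB motif as written, 3.44% the interferon-stimulated response element, 8.3% the gamma-activated site and 28.3% the PU.1 motif. A match is a description of letters in the window and was not set against any binding data.

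In the LPS receptor complex the signalling receptor fell and neither helper passed the test. Tlr4 (chromosome 4, 66827584 to 66930284, mm10) stood at 8.54, 8.52 and 8.33 in unstimulated clones 7, 29 and 75 and at 7.71, 7.92 and 7.62 with LPS. In clones 69, 73 and 83 its log2 levels were 8.47, 8.73 and 8.29 unstimulated and 7.69, 8.02 and 8.05 with LPS. Every LPS level lay below every unstimulated level, in both phenotypes. The log2 change of Tlr4 was −0.65 ± 0.10 (SE; 1.56-fold lower, adjusted p = 0.000679 with limma), −0.71 ± 0.14 in low clones (adjusted p = 0.00646) and −0.58 ± 0.14 in high clones (adjusted p = 0.0373). It was lower with LPS in 6 of 6 clones, by 0.24 (clone 83) to 0.83 (clone 7) when given as sizes. In high clones the call was lost without clone 7 (adjusted p = 0.0766), 29 (0.0612), 69 (0.248) or 73 (0.192), with arrays centred on their median (0.0514) and in a fit of the 6 high arrays alone (0.114). In low clones it was lost without clone 7 (0.0923). The array's Tlr4 feature reaches beyond the RefSeq gene, which ends at 66846581, and its 24 probes are marked as specific.

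Cd14 (chromosome 18, 36725067 to 36726736), the LPS-binding co-receptor, did not pass in any comparison. Its log2 levels were 11.36, 10.68 and 11.10 in unstimulated clones 7, 29 and 75, and 11.19, 10.54 and 10.68 with LPS. The high clones 69, 73 and 83 gave 11.52, 11.10 and 11.63 unstimulated and 11.35, 11.12 and 11.56 with LPS. The groups overlapped, with clone 29 lowest and clone 83 highest in both conditions. The LPS change over all clones was −0.16 ± 0.15 (95% interval −0.48 to 0.16, adjusted p = 0.605). High clones with LPS were 0.54 ± 0.21 above low clones with LPS (95% interval 0.09 to 0.99), which did not pass (adjusted p = 0.337).

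Ly96 (chromosome 1, 16688456 to 16709605), which encodes MD-2, the chain that binds the lipid part of LPS, did not pass in any comparison either. Unstimulated it stood at 9.80, 9.93 and 9.97 in clones 7, 29 and 75 and at 10.14, 10.05 and 10.16 in clones 69, 73 and 83. With LPS the levels were 9.87, 9.96 and 10.03 in the low clones and 9.74, 9.99 and 9.97 in the high clones. Unstimulated high clones lay above unstimulated low clones without overlap, by 0.22 ± 0.10 on the log2 scale (adjusted p = 0.493). Over all clones the LPS change was −0.08 ± 0.07 (95% interval −0.24 to 0.07, adjusted p = 0.577).

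Among the surface receptors for lipopeptides LPS raised Tlr2 and left its dimer partners without a call. Tlr2 (chromosome 3, 83836272 to 83841767) had unstimulated log2 levels of 6.24, 5.76 and 5.48 in clones 7, 29 and 75 and of 6.25, 6.56 and 6.64 in clones 69, 73 and 83. With LPS they were 7.99, 7.80 and 7.91 in the low clones and 8.17, 7.87 and 7.99 in the high clones. Each LPS level exceeded each unstimulated level, and the 6 LPS levels lay within a narrower range than the 6 unstimulated ones. The 6 unstimulated levels lay under the intron control level of 7.26, so the mean with LPS was at least 1.56-fold higher in low clones and at least 1.68-fold higher in high clones. The log2 difference of the values as measured was 1.80 ± 0.12 over all clones (adjusted p = 8.64e-07), 2.07 ± 0.17 in low clones (adjusted p = 1.03e-05) and 1.53 ± 0.17 in high clones (adjusted p = 0.000313), and it passed in all 12 alternatives of each. Among the 12 is the fit with dim genes left out, which keeps Tlr2 only through its LPS groups and so adds no support. Low and high clones did not overlap unstimulated, though clone 7 (6.24) and clone 69 (6.25) nearly met. The high clones lay 0.66 ± 0.17 above the low clones (adjusted p = 0.106), with both groups under 7.26 and so with no fold. Without clone 7 that difference was 0.86 (adjusted p = 0.0428). With LPS the difference was 0.11 ± 0.17 (95% interval −0.26 to 0.48, adjusted p = 0.884).

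Tlr1 (chromosome 5, 64924811 to 64932761) and Tlr6 (chromosome 5, 64953095 to 64960048) are neighbours, with 20333 bases between their features, and encode the partners of TLR2 for triacylated and diacylated lipopeptides. Tlr1 stood at 7.80, 8.07 and 7.57 in unstimulated clones 7, 29 and 75 and at 7.76, 7.56 and 7.36 with LPS. Clones 69, 73 and 83 had 7.25, 7.71 and 7.21 unstimulated and 6.78, 7.23 and 6.84 with LPS. Its level was lower with LPS in 6 of 6 clones, and the low and high clones did not overlap with LPS. The LPS change was −0.35 ± 0.13 (adjusted p = 0.0985), and it passed with the clone as a block (adjusted p = 0.0146) and with dim genes left out (0.0454). In high clones the change was −0.44 ± 0.18 (adjusted p = 0.241, and 0.0454 with the clone as a block). All 3 high arrays with LPS lay under 7.26, as did clones 69 and 83 unstimulated. Set against 7.26, the fall of the mean in high clones was at least 1.09-fold. That bound rests on clone 73, the only unstimulated high array above 7.26, and the change was not called. High minus low clones gave −0.42 ± 0.18 unstimulated (adjusted p = 0.406) and −0.61 ± 0.18 with LPS (adjusted p = 0.15). With LPS the mean of low clones was at least 1.23-fold above that of high clones, in a difference that was not called. Tlr6 ranged only from 7.72 to 8.14 over the 12 arrays, with an LPS change of −0.07 ± 0.09 (95% interval −0.26 to 0.12, adjusted p = 0.718).

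Of the endosomal receptors Tlr3 and Tlr9 rose over all clones, Tlr13 fell and Tlr7 was not called. Tlr3 (chromosome 8, 45395665 to 45410608) stood at 8.40, 8.18 and 8.13 in unstimulated clones 7, 29 and 75 and rose to 9.97, 10.04 and 10.21. In clones 69, 73 and 83 it went from 8.22, 8.17 and 7.67 to 9.16, 9.18 and 8.62. All LPS levels exceeded all unstimulated levels, and every low clone with LPS lay above every high clone with LPS. The LPS change was 1.40 ± 0.12 over all clones (2.64-fold, adjusted p = 8.29e-06), 1.84 ± 0.17 in low clones (3.57-fold, adjusted p = 3.15e-05) and 0.97 ± 0.17 in high clones (1.95-fold, adjusted p = 0.00729). The call in high clones was lost without clone 73 (adjusted p = 0.0646) and in a fit of the 6 high arrays alone (0.0555).

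With LPS, Tlr3 was 1.09 lower on the log2 scale in high than in low clones when given as a size (−1.09 ± 0.17, 2.12-fold, adjusted p = 0.00968), and it was the 1 member called between the phenotypes. In that comparison 1.32% of all genes tested were called, 0.982% as higher and 0.333% as lower in high clones. The call passed in 10 of 12 alternatives and was lost without clone 29 (−1.10, adjusted p = 0.0582) or clone 75 (−1.02, adjusted p = 0.061). Unstimulated, the difference of Tlr3 was −0.22 ± 0.17 (95% interval −0.59 to 0.16, adjusted p = 0.762). Within clones Tlr3 rose by 1.57, 1.86 and 2.08 in clones 7, 29 and 75 and by 0.94, 1.01 and 0.95 in clones 69, 73 and 83. The difference of these responses, −0.87 ± 0.25, did not pass over all genes (adjusted p = 0.953, unadjusted p = 0.00371; adjusted p = 0.221 with the clone as a block). The arrays of low clones with LPS enter the level comparison, the response of the low clones and this difference, which are therefore not separate evidence.

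Tlr9 (chromosome 9, 106222598 to 106226876) had log2 levels of 7.10, 6.98 and 6.60 in unstimulated clones 7, 29 and 75 and of 7.69, 7.88 and 8.07 with LPS. Levels in clones 69, 73 and 83 were 6.34, 7.60 and 6.91 unstimulated and 6.91, 7.90 and 7.56 with LPS. The low groups did not overlap, whereas clone 73 was higher unstimulated than clones 69 and 83 were with LPS. Each clone was higher with LPS, by 0.30 (clone 73) to 1.47 (clone 75), and the log2 change over all clones was 0.75 ± 0.21 (adjusted p = 0.0301). Unstimulated, 5 of the 6 levels lay under 7.26, clone 73 being the exception, and the mean of low clones was at least 1.54-fold higher with LPS. The call over all clones passed in 7 of 12 alternatives and was lost without clone 7 (adjusted p = 0.055), 29 (0.0896), 75 (0.154) or 83 (0.11), and in the authors' deposited table (q-value 0.0797). Among the 7 is the fit with dim genes left out, which keeps Tlr9 only through its LPS groups and so adds no support. In low clones the change was 0.99 ± 0.29 (adjusted p = 0.0589, and 0.00405 with the clone as a block) and in high clones 0.51 ± 0.29 (adjusted p = 0.468).

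Tlr13 (chromosome X, 106143229 to 106160493) fell over all clones and in low clones. Its log2 levels were 9.43, 9.35 and 9.07 in unstimulated clones 7, 29 and 75 and 8.61, 8.78 and 8.38 with LPS. In clones 69, 73 and 83 they were 9.45, 9.13 and 9.27 unstimulated and 8.89, 8.57 and 8.85 with LPS. No LPS level reached any unstimulated level. The change was −0.60 ± 0.10 over all clones (1.52-fold lower, adjusted p = 0.00126) and −0.69 ± 0.14 in low clones (adjusted p = 0.00856, but 0.101 without clone 7). In high clones it was −0.51 ± 0.14 and missed the threshold (adjusted p = 0.0697), and it passed there with the clone as a block (0.0128).

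Tlr7 (chromosome X, 167304929 to 167330558) did not pass in any comparison. It stood at 9.45, 9.16 and 9.08 in unstimulated clones 7, 29 and 75 and at 9.03, 8.93 and 8.87 with LPS. In clones 69, 73 and 83 it was at 9.20, 8.39 and 8.62 unstimulated and at 8.72, 8.49 and 8.48 with LPS. Clone 69, a high clone, lay in the range of the low clones when unstimulated. The LPS change was −0.23 ± 0.12 (adjusted p = 0.301), and high minus low clones gave −0.49 ± 0.18 unstimulated (adjusted p = 0.294) and −0.38 ± 0.18 with LPS (adjusted p = 0.463). Without 1 clone the unstimulated difference ran from −0.32 (without clone 73, adjusted p = 0.585) to −0.73 (without clone 69, adjusted p = 0.0471), and only the latter passed.

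**Figure D2:**
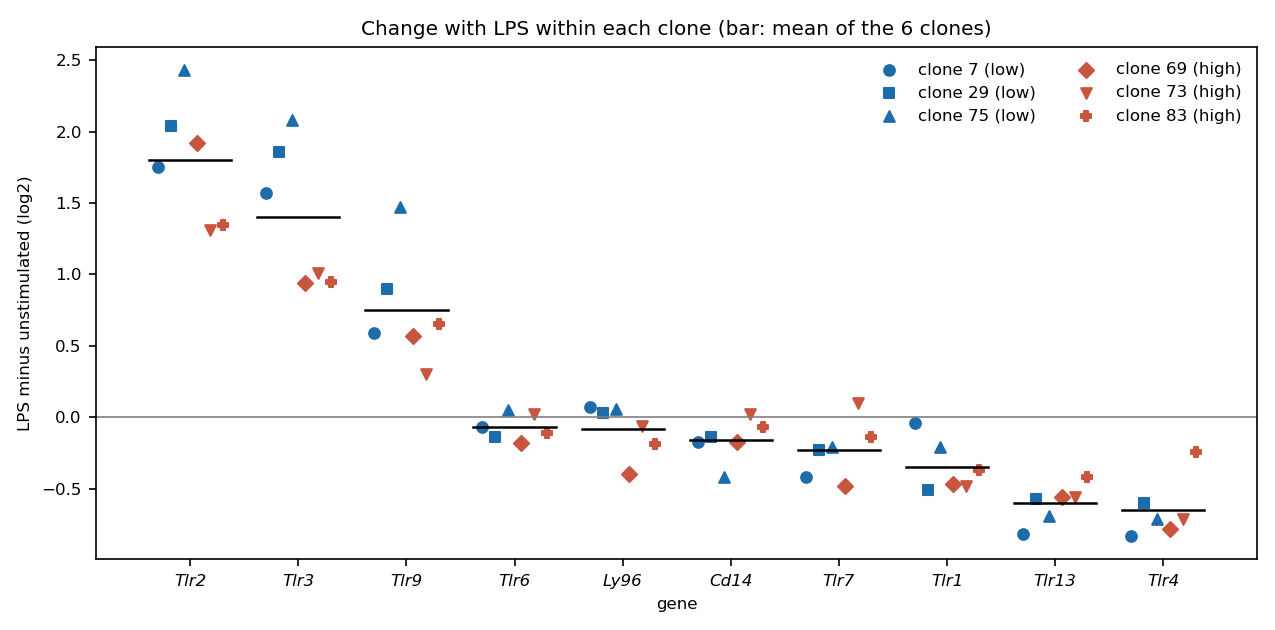
LPS minus unstimulated log2 level (vertical axis) of each gene (horizontal axis, ordered by the mean change) within each clone, with markers for the clones, colours for the phenotype and a black bar at the mean of the 6 clones. The 3 low clones lie between 1.57 and 2.08 for Tlr3 and the 3 high clones between 0.94 and 1.01, and all clones lie above 0 for Tlr2, Tlr3 and Tlr9 and below 0 for Tlr1, Tlr4 and Tlr13.

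Within each phenotype, 2 members rose and 2 fell in low clones, where 7.73% of all genes were called (3.59% higher, 4.13% lower). In high clones 2 rose and 1 fell, against 3.88% of all genes (1.82% higher, 2.06% lower). Of genes that reached 7.26 in at least 1 group, as all members did, 18.1% were called in low clones and 9.97% in high clones. The LPS changes of the 2 phenotypes differed for 0 members in limma's test of the difference, with 2 members (Tlr2 and Tlr3) at an unadjusted p under 0.05, and 0.0110% of all genes passed. For Tlr2 that difference was −0.55 ± 0.24 (adjusted p = 0.983) and rests on unstimulated levels under 7.26. The groups of low clones did not overlap between conditions for 6 members and those of high clones for 5, compared with 25.2% and 19.7% of all genes.

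High and low clones without stimulation differed for 0 of 10 members with limma (3 at an unadjusted p under 0.05, namely Tlr1, Tlr2 and Tlr7), where 1.14% of all genes were called (0.920% higher and 0.216% lower in high clones). Tlr2 and Ly96, both higher in high clones, were the 2 members without overlap, a pattern that 15.6% of all genes show. For Tlr2 all these levels lay under 7.26, and clones 7 (6.24) and 69 (6.25) nearly met. With LPS, Tlr1, Tlr3 and Tlr7 did not overlap and were lower in high clones, against 15.2% of all genes without overlap in either direction. Il4ra, the gene that encodes IL-4Ra, differed by −0.19 ± 0.29 unstimulated (adjusted p = 0.903) and −0.13 ± 0.29 with LPS (adjusted p = 0.927). The labels give activity of the receptor chain and not the level of this transcript. Its lowest unstimulated levels, 7.11 in low and 7.20 in high clones, lay under 7.26. The 95% intervals of the members' unstimulated differences reached at most 1.03 above 0 (Tlr2) and 0.87 below 0 (Tlr7, as a size).

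**Figure D3:**
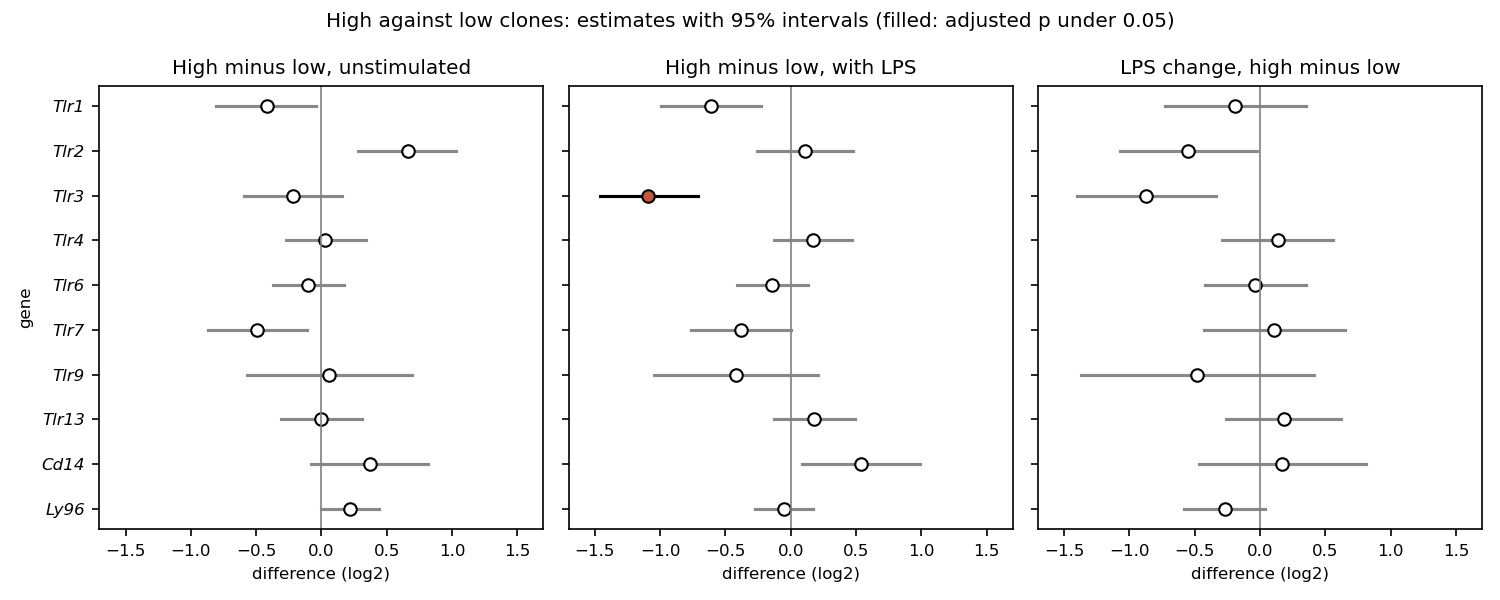
Differences between high and low clones on the log2 scale (horizontal axes) for each gene (vertical axis), unstimulated, with LPS and as the difference of the LPS changes; points are estimates of the fit over 12 arrays and lines their 95% intervals. Filled points mark an adjusted p under 0.05, which holds for Tlr3 with LPS alone (−1.09).

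The other genes of the pathway, 45 in number and listed by role, changed in both directions with LPS: 9 rose and 8 fell over all clones. These are 37.8% of the list, against 12.4% of all genes. Among those that reached 7.26 in at least 1 group 15 of 35 were called, against 27.8% of all such genes. The list was chosen with earlier results of these data known. Its shares, here and by phenotype below, are therefore descriptions and were not tested. The median change of the list was −0.03. Of 4 further Toll-like receptor genes Tlr5, the flagellin receptor, fell by 1.10 ± 0.24 on the log2 scale (adjusted p = 0.00819, but q-value 0.126 in the authors' deposited table). All its LPS arrays and all unstimulated low arrays lay under 7.26, so no fold is given. Its unstimulated levels were wide in high clones (7.43 ± 0.79, SD, n = 3) and narrow in low clones (6.80 ± 0.11). Cd180, which encodes RP105, a relative of TLR4 without a signalling domain, was the 1 gene of 3 called among Lbp, Cd180 and Ly86 (−0.49 ± 0.12, adjusted p = 0.0179), a call that was lost without clone 7 (0.0525), 69 (0.0618) or 73 (0.0631).

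Of 12 genes for chaperones, transport and processing 2 rose and 2 fell. Unc93b1, which carries the nucleic acid-sensing receptors to endosomes, rose by 0.49 ± 0.08 (adjusted p = 0.00101), and Slc15a3, an endolysosomal peptide transporter, by 0.75 ± 0.09 (adjusted p = 0.000127). The proteases Lgmn (−0.79 ± 0.10) and Ctsb (−0.29 ± 0.07), which have been described to cleave endosomal receptors, fell, and the call of Ctsb was lost without clone 69 (adjusted p = 0.0562) and in the authors' deposited table (q-value 0.0557). Among 6 TIR adaptors Ticam2, which encodes TRAM, the bridge from TLR4 to TRIF, rose by 0.74 ± 0.17 (adjusted p = 0.0101) with all 4 group means under 7.26, and Pik3ap1, which encodes BCAP, fell by 0.59 ± 0.10 (adjusted p = 0.00123). Myd88, the main adaptor, had a change of 0.19 ± 0.09 that did not pass.

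The kinases, ligases and their partners held 4 higher and 2 lower of 14. The kinase genes Ikbke (1.99 ± 0.13, adjusted p = 5.95e-07), Irak2 (0.71 ± 0.08) and Tbk1 (0.53 ± 0.10) and the ubiquitin ligase gene Peli1 (1.04 ± 0.09) rose, and Tab1 (−0.36 ± 0.08) and Irak1 (−0.30 ± 0.08) fell. The call of Irak1 passed in 7 of 12 alternatives and was lost without clone 7 (adjusted p = 0.0754), 29 (0.0603), 75 (0.125), 69 (0.0513) or 73 (0.139), and that of Tab1 was lost in the authors' deposited table (q-value 0.184). Of 6 inhibitors Irak3, which encodes IRAK-M, rose by 2.37 ± 0.11 (5.18-fold, adjusted p = 5.98e-08), Tnfaip3, which encodes A20, by 1.76 ± 0.10, the latter from unstimulated levels under 7.26. Il1rl1, which encodes ST2, fell by 0.86 ± 0.17 (adjusted p = 0.00358, but q-value 0.0952 in the authors' deposited table) with all 12 arrays under 7.26.

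By phenotype, 8 of the 45 rose and 4 fell in low clones, which is 26.7% against 7.73% of all genes. Among those that reached 7.26 in at least 1 group 11 of 35 were called, against 18.1% of all such genes. In high clones 7 rose and 2 fell, which is 20.0% against 3.88%. Of those that reached 7.26 it was 9 of 35, against 9.97%. In both, Ikbke (2.18 and 1.79), Irak3 (2.54 and 2.20) and Slc15a3 (0.94 and 0.56) were among those that rose and Lgmn (−0.85 and −0.73) among those that fell. In high clones the call of Slc15a3 passed in 5 of 12 alternatives, with an adjusted p of 0.051 to 0.223 when any 1 clone was left out, and that of Lgmn was lost without clone 69 (0.0925) or 83 (0.0574). Between phenotypes Peli1 was higher in unstimulated high clones by 0.63 ± 0.13 (adjusted p = 0.0415), and Tab1 was higher in high clones with LPS by 0.53 ± 0.11 (adjusted p = 0.0314). Those were the only called genes of the 45 in the comparisons of high with low clones, and both calls passed in 5 of 12 alternatives. That of Peli1 was lost without clone 7, 29, 75, 73 or 83 (adjusted p up to 0.192), and that of Tab1 without any 1 of the 6 clones (0.0534 to 0.165).

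**Figure D4:**
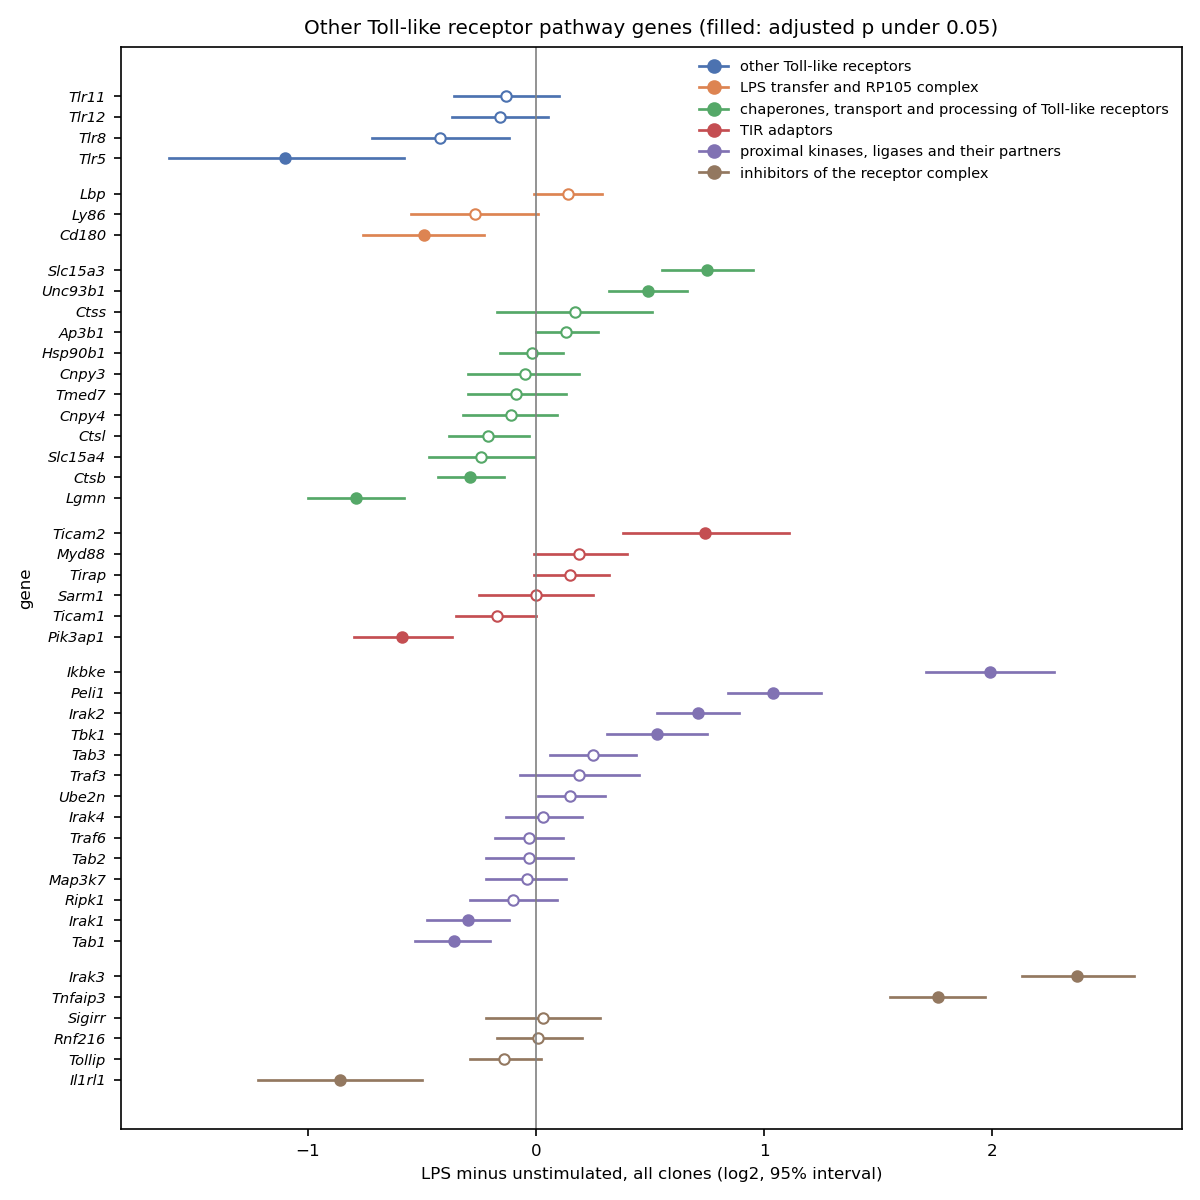
LPS change over all clones on the log2 scale (horizontal axis) of the 45 other pathway genes (vertical axis), coloured by role, with 95% intervals; filled points have an adjusted p under 0.05. Irak3 (2.37), Ikbke (1.99) and Tnfaip3 (1.76) lie farthest to the right and Tlr5 (−1.10) farthest to the left.

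The genes with the pattern most like each called member were found by the root mean square difference of log2 levels over the 12 arrays, after each gene's own mean was subtracted. For Tlr2 these were Tnfaip3 (0.177) and the cytokine gene Tnf (0.206), followed by LOC101055672 (0.210), whose probes are marked as shared with other genes. For Tlr3 they were the peptide transporter gene Tap1 (0.155), the transcription factor gene Stat2 (0.163) and the class I gene H2-T22 (0.170). Timp2 (0.092), Atp6v0d1 (0.111) and Acap3 (0.114) were nearest to Tlr4, and Spc25 (0.098), Soga1 (0.108) and Def6 (0.108) to Tlr13. For Tlr9 the nearest were 4930599N23Rik (0.228), Mir1932 (0.262) and Hip1r (0.262), at distances that compare with an SD of 0.56 of Tlr9 itself over the arrays. That SD was 0.99 for Tlr2, 0.86 for Tlr3, 0.37 for Tlr4 and 0.36 for Tlr13. The distances were not scaled by it, so their sizes cannot be ranked across members. These distances describe 12 arrays that share the LPS contrast and 6 clones.

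The arrays were alike in distribution, with medians between 4.35 and 4.40 over all features, and the mean correlation across genes within a group was 0.992 to 0.994. The stimulation was seen in Tnf, which rose by 2.05 ± 0.08 over all clones (adjusted p = 8.54e-09). Of 10 macrophage markers Adgre1, Cd68, Csf1r, Fcgr1 and Lyz2 exceeded the intron control level of 7.26 on all arrays, whereas Marco and Itgam did so on none. Of 5 measured alveolar macrophage markers Siglecf, Car4, Pparg and Chil3 exceeded it on no array and Fabp4 on some. No lymphocyte (6), dendritic cell (4) or neutrophil and mast cell marker (6) exceeded it on any array, although the mean log2 level of the last list was 3.56 to 3.72 in unstimulated and 3.98 to 4.17 in LPS arrays. Of 8 markers of fibroblasts, epithelium and endothelium Col1a1 exceeded it on all arrays and Dcn on the LPS array of clone 75 (7.50), and the mean of that list was 4.28 to 4.42 unstimulated, 4.54 to 5.01 in low clones with LPS and 4.42 to 4.49 in high clones with LPS. The part of these genes in the receptor results was not tested.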

How the data were processed

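RNA of 6 MH-S clones was measured on 12 arrays, and the clone is the replicate. The deposited files hold log2 values from RMA in Affymetrix Expression Console ( background correction, quantile normalization over the arrays, median polish), per the file headers and the submitters' processing notes. The annotation is NetAffx build 34 on mm10. RMA brings all arrays to one distribution, so changes are relative to the other genes of an array. The workbook also holds the authors' deposited signed fold change (a score), p-value and q-value, per the file headers from an unpaired test on untransformed values, used only where the authors' deposited table or test is named. Both deposited tables hold the same values (largest difference 0).

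Of 33793 main features 29294 have a symbol; symbols were updated through RefSeq gene IDs (GRCm38.p6, 25154 matched), and the feature of highest mean stood for each of 27296 genes. The 4 groups were fitted in 1 model over all 12 arrays with limma 3.58.1 in R 4.3.3 (lmFit, eBayes, two-sided, Benjamini-Hochberg over 27296 genes), which gave 6 comparisons; a gene was called at an adjusted p under 0.05. The script was tested on simulated data. Errors beside changes are standard errors of the fit, intervals cover 95%, and those beside levels are SDs (3 clones). Precision is limited by the number of arrays. The labels give no batch, so batch effects were not tested.

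The labels pair the 2 arrays of each clone, and their deviations from the group means correlated at 0.100 to 0.415 across genes. The paired fit, with the clone as a block, is given beside each member whose call it changes, and it ended no call of the pathway genes named. The alternatives for the pathway genes were added after the data were seen. The members, pathway lists and motifs were chosen with earlier results of these data known. All 10 members are named in every comparison. Of each pathway role up to 4 called genes are named over all clones and up to 2 in other comparisons, and Tab1 and Irak1 are named over all clones beyond that number. Myd88, which was not called, was named after its values were seen. Other alternatives were leaving out each clone, a trended and robust variance prior, arrays centred on their median, dim genes left out, features kept apart and only the compared arrays.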

Additional observations from a re-analysis of the deposited data

Results flagged for a closer look

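Ly96 moved in opposite directions in the 2 phenotypes: with LPS it was higher by 0.07, 0.03 and 0.06 on the log2 scale in the low clones 7, 29 and 75, and its change was −0.40, −0.06 and −0.19 in the high clones 69, 73 and 83. The difference of the responses was −0.27 ± 0.14 and did not pass limma's test (adjusted p = 0.983, unadjusted p = 0.0842; adjusted p = 0.704 with the clone as a block). In clones 29, 75 and 73 the change was at most 0.06 in size.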

How the results depend on the processing

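Of 710 recomputed changes of single members under 13 alternatives, 17 lost a call, 15 gained one, 9 changed sign and 669 did none of these. The number of members called over all clones stayed between 4 and 6 (5 in the results), and for the difference of responses it was 0 in all 11 alternatives. In low clones 4 members were called, and 2 to 5 when 1 clone was left out (2 without clone 7). In high clones 3 were called, with 5 in the paired fit (replicate block), 1 in a fit of the 6 high arrays alone and 1 to 4 when 1 clone was left out (1 without clone 73, 2 without clone 7, 29 or 69). Between unstimulated high and low clones 0 were called, with 1 when dim genes were left out (Tlr2, which passes that filter only through its LPS groups; adjusted p = 0.0471) and 0 to 1 when 1 clone was left out (1 without clone 7 or 69). With LPS 1 was called, and 0 to 1 when 1 clone was left out (0 without clone 29 or 75). Unstimulated Tlr13, at 0.00 between phenotypes, has no sign and ran from −0.11 to 0.08. The other signs changed only when a clone was left out, for differences that were not called. These were high minus low for unstimulated Tlr4 (−0.08 to 0.14) and Tlr9 (−0.27 to 0.36) and for Ly96 with LPS (−0.10 to 0.03), and the difference of responses of Tlr4 (−0.03 to 0.24), Tlr6 (−0.09 to 0.02) and Tlr7 (−0.02 to 0.27). The replicate block changed no calls of members beyond those given beside the results. Of the 45 other pathway genes 17 were called over all clones (13 to 19 in the alternatives). In low clones 12 were called (16 in the paired fit, 7 to 12 when 1 clone was left out), and in high clones 9 (12 in the paired fit, 4 to 7 when 1 clone was left out). Between phenotypes 1 was called at rest, with 0 to 2 when 1 clone was left out, 3 without dim genes, and 0 with arrays centred or only the compared arrays. With LPS 1 was called, with 0 to 1 when 1 clone was left out, 2 without dim genes and 0 with only the compared arrays. Counts over all genes ranged from 2344 to 4362 for LPS over all clones (3395), from 941 to 2956 in low (2109) and 398 to 1820 in high clones (1059), from 38 to 422 (310) and 108 to 477 (359) for the phenotypes at rest and under LPS, and from 0 to 15 (3) for the difference of responses. Leaving out a clone lowers the number of arrays; other causes were not tested.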
